A study of Rattus norvegicus with 24 samples.

Results

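The transcripts described here are those that were abundant in the infarcted rat ventricle without belonging to the most abundant set of the Sham ventricle. They were chosen by their level in CPM, the count of a gene scaled by the total of its library. The 100 genes with the highest mean CPM over the 6 MI libraries shared 43 genes with the 100 highest of the 6 Sham libraries. Of the other 57, the rule leaves out 3 (of 10 listed gene IDs), which left 54 of the 32883 gene IDs in the table. The members were thus selected on measured levels in MI and Sham, so those levels are a description and carry no test. The 12 libraries with a patch had no part in the choice.

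All 24 libraries, in 4 groups of 6, came from left ventricle. The rats were Sprague Dawley, which is an outbred stock. The Microneedle patch group carried, on an infarct, a patch held in the tissue by its own needles. In the Sutured patch group the patch on the infarct was stitched. The MI group had a myocardial infarction, the death of heart muscle after loss of its blood supply, and no patch. The Sham group has that label only, the usual word for an operation without infarction. Tissue was taken 7 days after infarction and implantation, per the labels from the infarct region; where a Sham heart was sampled, what the patch is made of and whether each library is a separate animal is not stated there. The p-values below therefore measure the spread between libraries, which may be technical.

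In a heart about a week after infarction, dead muscle is being cleared by phagocytes while fibroblasts turn into contractile, matrix-producing cells that lay down a scar. Transcripts of matrix proteins, of lysosomal and immune proteins and of the cytoskeleton are known to become abundant in such tissue, and those of the contractile and energy machinery of muscle to become scarcer. This is general background. The files and the reference tables pair 0 of the gene IDs with a symbol, so that no role can be given to any of the 54 transcripts, no marker of a cell type could be read, and the labelled tissue could not be checked against its defining genes. No sequence is shown for the same reason. Transcripts are therefore identified by their rank in MI, where rank 1 is the gene with the highest mean CPM, and 4 are given by their Ensembl ID. In bulk tissue, a lower share of cells of a type and less RNA per cell cannot be told apart.

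Totals ranged from 13590783 to 14552623 counts per library with the microneedle patch, from 12574300 to 14437712 with the sutured patch, from 12864218 to 13974505 in MI and from 5443782 to 11757562 in Sham. The Sham group was thus shallower than all others, and its replicates 4 and 5 had the fewest detected genes (14079 and 13635). Replicate 5 had the lowest total, 5443782 counts. Replicate 4 had 10753596 counts, more than replicate 3, which had 8303319 counts and 16223 detected genes. Depth did not limit the 54 transcripts: the lowest count of any of them in any library was 52, in Sham, and in the infarct groups the lowest was 462.

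The 54 transcripts together took up more of the RNA counted in each infarct group than in Sham tissue. Their summed share of counts averaged 9.90% ± 0.53 with the microneedle patch, 8.36% ± 0.47 with the sutured patch, 9.79% ± 0.92 in MI and 2.27% ± 0.26 in Sham (SD, n = 6 each). With the microneedle patch the libraries ran from 9.24% over a median of 9.84% to 10.8%. With the sutured patch they ran from 7.59% over 8.38% to 8.87%, which lies below the lowest microneedle library. In MI they ran from 8.15% over 10.02% to 10.6%, so that MI overlapped the microneedle patch group broadly. It overlapped the sutured patch group only through its replicate 1, the lowest MI library. In Sham they ran from 2.03% over 2.22% to 2.76%. The 95% Wilson interval of a library's share was at most 0.0166 percentage points to either side, for counting error only. Without MI replicate 1 the MI mean was 10.1% ± 0.49 (SD, n = 5), and the other 5 MI libraries were above every sutured patch library. Replicate 1 was left out here as the lowest MI library, which favours that separation. A high MI level also chose the transcripts, which favours a high MI share. No p-value is given for this sum, since the transcripts were chosen with results known.

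**Figure D1:**
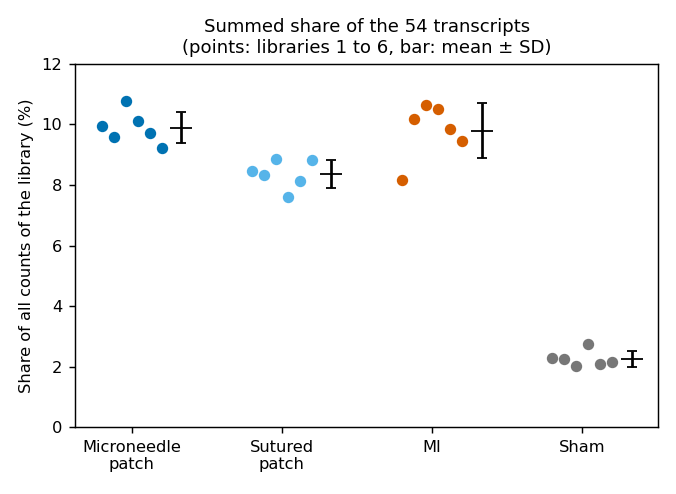
Summed share of all counts (y axis, percent) held by the 54 transcripts in each library, by group; points are the 6 libraries in the order of their replicate numbers and the bar is the mean ± SD. The microneedle patch libraries (9.24% to 10.8%) lie above all sutured patch libraries (7.59% to 8.87%), MI replicate 1 (8.15%) is the lowest MI library, and Sham lies between 2.03% and 2.76%.

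For comparison, the 43 genes abundant in both MI and Sham held 14.7% ± 0.69 of counts with the microneedle patch, 14.3% ± 1.01 with the sutured patch, 15.6% ± 0.89 in MI and 13.4% ± 1.48 in Sham (SD, n = 6 each). These genes were chosen for a high level in both MI and Sham, which favours like shares in those groups.

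The transcripts differed widely in how far they stood above Sham. Log2 fold changes of MI over Sham ran from 0.01 to 6.34 with a median of 2.20, against a median of -0.04 over the 14540 genes tested. The largest class by Sham level, 20 transcripts with at least 500 CPM in Sham, had a median log2 fold change of 0.73. The 19 transcripts between 250 and 500 CPM in Sham had a median of 2.46, and the 11 between 50 and 250 CPM a median of 3.55. The remaining 4 were below 50 CPM in Sham, with a median of 6.29. This climb follows in part from the sorting, since the Sham level both sets the class and divides the fold change. The rule also keeps every MI mean at 913 CPM or more.

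Those 4 transcripts were scarce in every Sham library, at 59.5 CPM or less. That of MI rank 56 averaged 2713 ± 1518 CPM with the microneedle patch, 1412 ± 712 with the sutured patch, 1404 ± 818 in MI and 16.7 ± 7.31 in Sham (SD, n = 6 each). It was also the most uneven of the 54 among MI libraries, from 545 CPM over a median of 1218 to 2772 CPM. At MI rank 94, the transcript averaged 1417 ± 562 CPM with the microneedle patch, 1261 ± 680 with the sutured patch, 929 ± 434 in MI and 11.9 ± 1.18 in Sham. Its Sham libraries lay within 10.96 to 13.8 CPM, and no library of the other groups was below 377 CPM. Next, at MI rank 88, the transcript averaged 655 ± 173 CPM with the microneedle patch, 330.0 ± 176 with the sutured patch, 957 ± 225 in MI and 11.7 ± 1.91 in Sham. The fourth, of MI rank 63, averaged 597 ± 301 CPM with the microneedle patch, 440.1 ± 238 with the sutured patch, 1267 ± 320 in MI and 40.1 ± 14.3 in Sham.

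Among the 10 most abundant genes of the infarct were 4 of the 54 transcripts, of MI ranks 4, 5, 7 and 9. The first of them, of MI rank 4, averaged 5244 ± 885 CPM with the microneedle patch, 5585 ± 1170 with the sutured patch and 6290 ± 1847 in MI, against 97.6 ± 26.7 in Sham, where its rank was 2133. Its libraries overlapped among the infarct groups. The transcript of MI rank 5 averaged 5615 ± 674 CPM with the microneedle patch, 4267 ± 515 with the sutured patch, 6145 ± 856 in MI and 478 ± 96.0 in Sham. By contrast, the transcript of MI rank 9 averaged 8828 ± 2473 CPM with the microneedle patch, where its rank was 4, 4680 ± 2432 with the sutured patch, 4923 ± 1260 in MI and 342 ± 133 in Sham. Further down, the transcript of MI rank 13 averaged 5256 ± 1298 CPM with the microneedle patch, 4076 ± 1367 with the sutured patch, 3333 ± 1204 in MI and 462 ± 103 in Sham, and its infarct groups overlapped. Those of MI ranks 18, 20 and 22 averaged between 1819 and 2680 CPM with the microneedle patch, between 1676 and 2795 with the sutured patch, between 2374 and 2601 in MI and between 189 and 635 in Sham. The 10 most abundant of the 54 transcripts held 3.84% ± 0.33 of counts with the microneedle patch, 3.01% ± 0.32 with the sutured patch, 3.97% ± 0.43 in MI and 0.391% ± 0.065 in Sham.

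At the other end, the list closes on a narrow margin. The last transcript inside the MI limit, of MI rank 100, had 913 ± 113 CPM in MI, and the first gene outside it had 908 ± 79.4 CPM. On the Sham side, the transcript closest to the limit had Sham rank 106 and 949 ± 551 CPM in Sham, while the gene at Sham rank 100 had 978 ± 441 CPM.

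**Figure D2:**
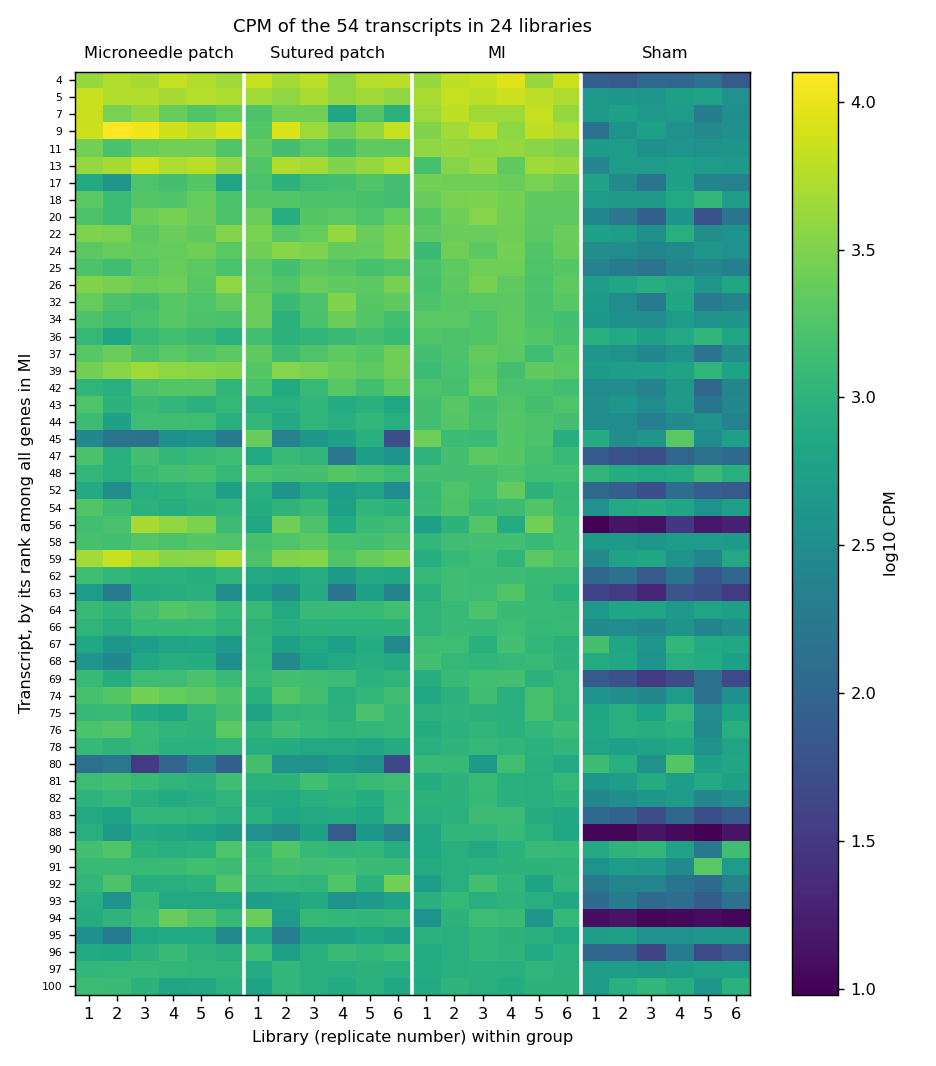
CPM on a log10 colour scale for the 54 transcripts (rows, ordered and labelled by MI rank) in the 24 libraries (columns, replicates 1 to 6 within each group). The dark cells of the rows of MI rank 56, 63, 88 and 94 in Sham are the 4 transcripts below 50 CPM there, and the rows of MI rank 45 and 80 darken with the microneedle patch.

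Most of the 54 transcripts stayed abundant with a patch. Of the 54, 44 were among the 100 most abundant genes of the microneedle patch group and 40 among those of the sutured patch group. All of the 40 were also among the 44, and 10 were in neither list. Ranks of the 54 ran from 4 to 1501 with the microneedle patch (median 54.5), from 6 to 438 with the sutured patch (median 51.5) and from 106 to 9135 in Sham (median 368). Over all genes, the 100 most abundant genes of MI shared 73 with the microneedle patch list and 77 with the sutured patch list, and the patch lists shared 81 with each other.

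Which group had the highest level varied between transcripts. The highest of the group means was that of the microneedle patch in 17 transcripts, that of the sutured patch in 8 and that of MI in 29, and no transcript was highest in Sham. Since a high MI mean chose the transcripts, the count for MI is favoured by the choice. The mean with the microneedle patch was below that of Sham in 4 transcripts (MI ranks 45, 67, 68 and 80) and the mean with the sutured patch in 2 of them (MI ranks 67 and 80). Over Sham, the 54 log2 fold changes had a median of 2.34 with the microneedle patch, of 1.97 with the sutured patch and of 2.20 in MI. The medians over all genes tested were -0.01, -0.03 and -0.04 in the same order. Every library lay above every Sham library in 42 transcripts with the microneedle patch, where 14.9% of all genes did so. It also did so in 42 with the sutured patch, where 14.2% did. With the microneedle patch 1 transcript, ENSRNOG00000017786 described below, lay wholly below Sham, where 10.4% of all genes did. These comparisons share the Sham libraries and the Sham level entered the rule, so the values stand side by side without a test.

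**Figure D3:**
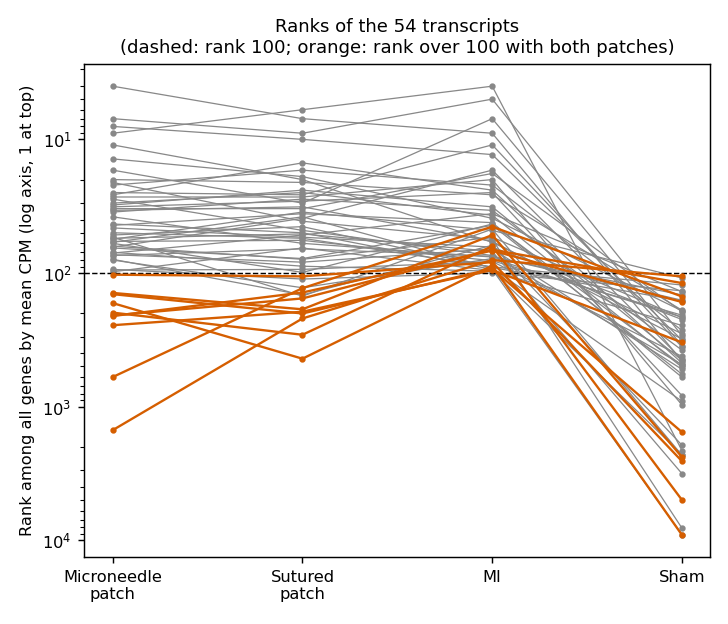
Rank by mean CPM among all genes (log axis, rank 1 at the top) of each of the 54 transcripts in the 4 groups; 1 line is 1 transcript and the dashed line is rank 100. The 10 orange lines are the transcripts that were outside the 100 most abundant genes with both patches, and the lowest with the microneedle patch lies at rank 1501.

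The microneedle patch was first compared with the sutured patch, the comparison that involves neither MI nor Sham levels. It asks whether the patch groups differed in these transcripts. The labels do not state what a patch is made of, so fixation and other differences between the patches cannot be told apart. With edgeR's quasi-likelihood test, and Benjamini-Hochberg adjustment across all 14540 genes tested, 0 of the 54 transcripts passed an adjusted p of 0.05. Among all genes 0.316% did, 0.144% higher and 0.172% lower with the microneedle patch. At an unadjusted p below 0.05 the count was 18 of 54, 16 higher and 2 lower with the microneedle patch. Of all genes 13.7% reached it, 6.68% higher and 7.02% lower. DESeq2 called 7 of the 54 (6 higher) against 2.89% of genes (1.27% higher), and limma-voom 14 (13 higher) against 5.52% (3.43% higher). The median log2 fold change of the 54 was 0.22, with 39 above 0, against a median of -0.01 over all genes tested. With libraries scaled by their totals alone, 35 were above 0. Without Sham replicate 5, which enters this fit through the shared estimate of spread, 3 transcripts were called, against 2.06% of all genes. Without Sham replicates 4 and 5 the count was 5, against 3.37%, and without sutured patch replicate 6 it was 1, against 1.35%. A fit of the 2 patch groups alone, which holds no Sham library, called 0 of the 54, against 0.417%. Fits with RLE scaling, with column totals and without the filter also called 0, against 0.323%, 0.371% and 0.128%.

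Groups separated in 2 of the 54 transcripts: in these, every microneedle patch library was above every sutured patch library, which held for 0.722% of all genes tested. One is ENSRNOG00000020843, described below. The other, of MI rank 78, had from 944 over 1039 to 1190 CPM with the microneedle patch and from 645 over 775 to 849 CPM with the sutured patch. Its log2 fold change was 0.54 (SE 0.14, edgeR adjusted p = 0.0813). This transcript averaged 1054 ± 104 CPM with the microneedle patch, 769 ± 70.8 with the sutured patch and 1030 ± 103 in MI (SD, n = 6 each). In the opposite direction, 0 of 54 transcripts had all microneedle patch libraries below all sutured patch libraries, against 1.06% of genes.

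The largest positive difference between the patches was that of MI rank 88, with a log2 fold change of 1.06 (SE 0.30, edgeR adjusted p = 0.1001). Its libraries ran from 448 over 660 to 897 CPM with the microneedle patch and from 73.0 over 328 to 582 CPM with the sutured patch, so that the groups overlapped. At MI rank 7 the transcript had a log2 fold change of 1.03 (SE 0.35, adjusted p = 0.177), with 1782 over 2666 to 7144 CPM with the microneedle patch and 665 over 1760 to 2758 CPM with the sutured patch. The value of 7144 CPM belongs to microneedle patch replicate 1 alone.

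**Figure D4:**
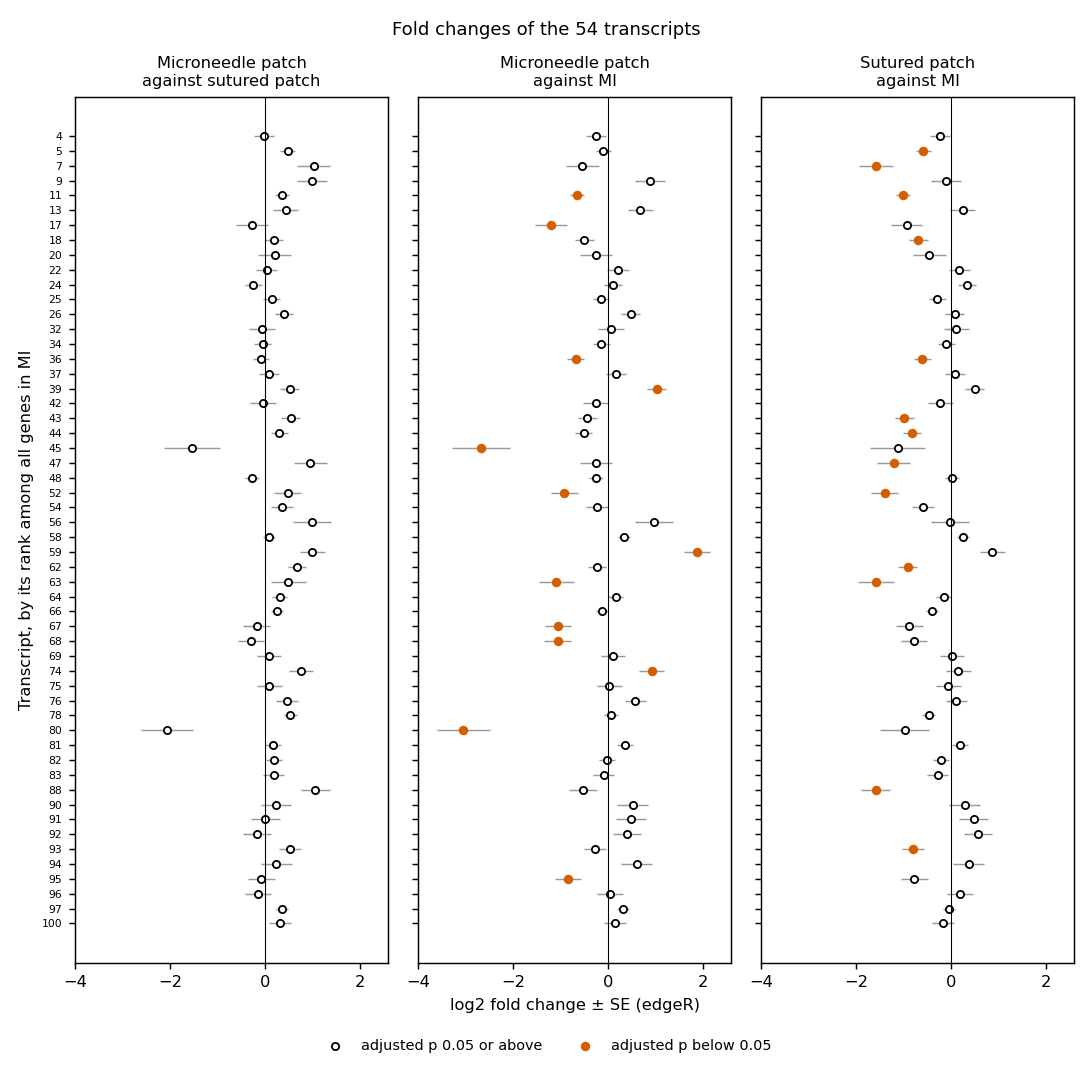
Log2 fold changes ± SE from the edgeR fit (x axis) for the 54 transcripts (rows, by MI rank) in the 3 comparisons; filled points have an adjusted p below 0.05. No point is filled for the microneedle against the sutured patch, 13 are filled for the microneedle patch against MI (3 higher, 10 lower) and 13 for the sutured patch against MI (all lower).

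Each patch was then compared with the untreated infarct. The MI libraries chose the transcripts for their high level, which favours falls in these comparisons, and both comparisons share those libraries. With the microneedle patch, 3 of the 54 transcripts rose against MI, where 7.12% of all genes were called higher, and 10 fell, where 7.41% were called lower (edgeR). Calls in either direction were 13 of 54, against 14.5% of all genes. Every microneedle patch library lay above every MI library in 4 transcripts, against 6.74% of all genes, and below in 9, against 7.93%. The median log2 fold change of the 54 was -0.09, against 0.02 over all genes tested. Of the 43 genes abundant in both MI and Sham, 2 rose and 12 fell. Among the 54, the count of 13 calls became 21 without Sham replicate 5, against 23.8% of all genes, and 20 without Sham replicates 4 and 5, against 25.7%.

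The steepest rise was that of ENSRNOG00000020843, at rank 11 with the microneedle patch, against rank 59 in MI. Its level ran from 3531 over a median of 4631 to 6918 CPM with the microneedle patch, from 1678 over 2561 to 3286 CPM with the sutured patch, from 832 over 1265 to 1996 CPM in MI and from 260 over 488 to 722 CPM in Sham. Every microneedle patch library was above every library of the other groups, and every MI library above every Sham library, while the sutured patch overlapped MI. The microneedle patch libraries averaged 4736 ± 1241 CPM and the MI libraries 1332 ± 413 CPM (SD, n = 6 each). The log2 fold change was 1.88 (SE 0.28, edgeR adjusted p = 0.000323, higher in 6 of 6 libraries). For the sutured patch against MI it was 0.87 (SE 0.27, adjusted p = 0.0649), and for the microneedle against the sutured patch 1.004 (SE 0.27, adjusted p = 0.0863). With 1 library left out, the adjusted p ran from 0.027 to 0.173 for the sutured patch against MI, below 0.05 without MI replicate 5, microneedle patch replicate 2, Sham replicate 4, 5 or 6 or sutured patch replicate 1. It ran from 0.0445 to 0.216 between the patches, below 0.05 without Sham replicate 5. The difference between the patches was also called with DESeq2 (adjusted p = 0.0124), limma-voom (0.0178), a replicate block (0.0293) and without Sham replicates 4 and 5 (0.0394), and not with the other alternatives (up to 0.115). The sutured patch against MI was also called with DESeq2, limma-voom, column totals, the block, the 2 groups alone and without Sham replicates 4 and 5 (adjusted p from 0.013 to 0.0445), and not with RLE scaling or without the filter (0.0601 and 0.0814).

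The next rise was that of ENSRNOG00000010331, at rank 14 with the microneedle patch, against rank 39 in MI. It ran from 2831 over 3526 to 4534 CPM with the microneedle patch, from 1875 over 2540 to 3473 CPM with the sutured patch, from 1311 over 1808 to 2174 CPM in MI and from 476 over 574 to 1052 CPM in Sham. The microneedle patch libraries were again all above those of MI, and they overlapped those of the sutured patch. The log2 fold change against MI was 1.03 (SE 0.20, edgeR adjusted p = 0.00202, higher in 6 of 6 libraries), with means of 3560 ± 574 CPM with the microneedle patch and 1782 ± 347 CPM in MI (SD, n = 6 each). The sutured patch against MI had 0.50 (SE 0.20, adjusted p = 0.163), which became 0.52 (adjusted p = 0.0428) without Sham replicate 5, the lowest p over the libraries left out (highest 0.345). It was also called without Sham replicates 4 and 5 (adjusted p = 0.0485). The difference between the patches, at 0.53 (SE 0.20, adjusted p = 0.230), was called with limma-voom alone among the alternatives (0.0169). The third called rise, of MI rank 74, had a log2 fold change of 0.92 (SE 0.26, adjusted p = 0.0202) with overlap between the groups, from 1566 to 2826 CPM with the microneedle patch and from 719 to 1578 CPM in MI.

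The steepest falls with the microneedle patch were those of ENSRNOG00000017786 and ENSRNOG00000016983. ENSRNOG00000017786 ran from 32.6 over 115 to 204 CPM with the microneedle patch, from 44.5 over 380 to 1520 CPM with the sutured patch, from 484 over 1056 to 1419 CPM in MI and from 376 over 778 to 1868 CPM in Sham. It fell to rank 1501 with the microneedle patch, against rank 80 in MI. The microneedle patch libraries lay below all MI and all Sham libraries, whereas MI and Sham overlapped. The log2 fold change against MI was -3.04 (SE 0.56, edgeR adjusted p = 0.00133, lower in 6 of 6 libraries). For the sutured patch against MI it was -0.98 (SE 0.52, adjusted p = 0.302), and for the microneedle against the sutured patch -2.06 (SE 0.54, adjusted p = 0.0787). Without sutured patch replicate 6 the difference between the patches was called, at -2.31 (adjusted p = 0.0186, range over the libraries left out 0.0186 to 0.255). Without sutured patch replicate 1 it was smaller, at -1.39 (adjusted p = 0.255). This difference was also called with DESeq2 (adjusted p = 0.00541), limma-voom (0.0184) and without Sham replicates 4 and 5 (0.0437), and not with the other alternatives (up to 0.123).

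ENSRNOG00000016983 ran from 142 over 225 to 398 CPM with the microneedle patch, from 54.2 over 506 to 2399 CPM with the sutured patch, from 848 over 1487 to 2583 CPM in MI and from 318 over 478 to 2036 CPM in Sham. All microneedle patch libraries were below all MI libraries, and the sutured patch libraries overlapped those of every other group. The log2 fold change against MI was -2.67 (SE 0.61, edgeR adjusted p = 0.00587, lower in 6 of 6 libraries). For the sutured patch against MI it was -1.12 (SE 0.58, adjusted p = 0.285). In both of these transcripts sutured patch replicate 1 was the highest and replicate 6 the lowest of the sutured patch libraries, and Sham replicate 4 was the highest Sham library. Without sutured patch replicate 1 the falls with the sutured patch against MI were called, at -1.63 (adjusted p = 0.048) for ENSRNOG00000017786 and -1.90 (adjusted p = 0.0397) for ENSRNOG00000016983. Their adjusted p-values over all leave-one-library-out fits ran from 0.048 to 0.482 for ENSRNOG00000017786 and from 0.0397 to 0.491 for ENSRNOG00000016983. Among the other alternatives limma-voom called both falls (adjusted p = 0.0277 and 0.0322).

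**Figure D5:**
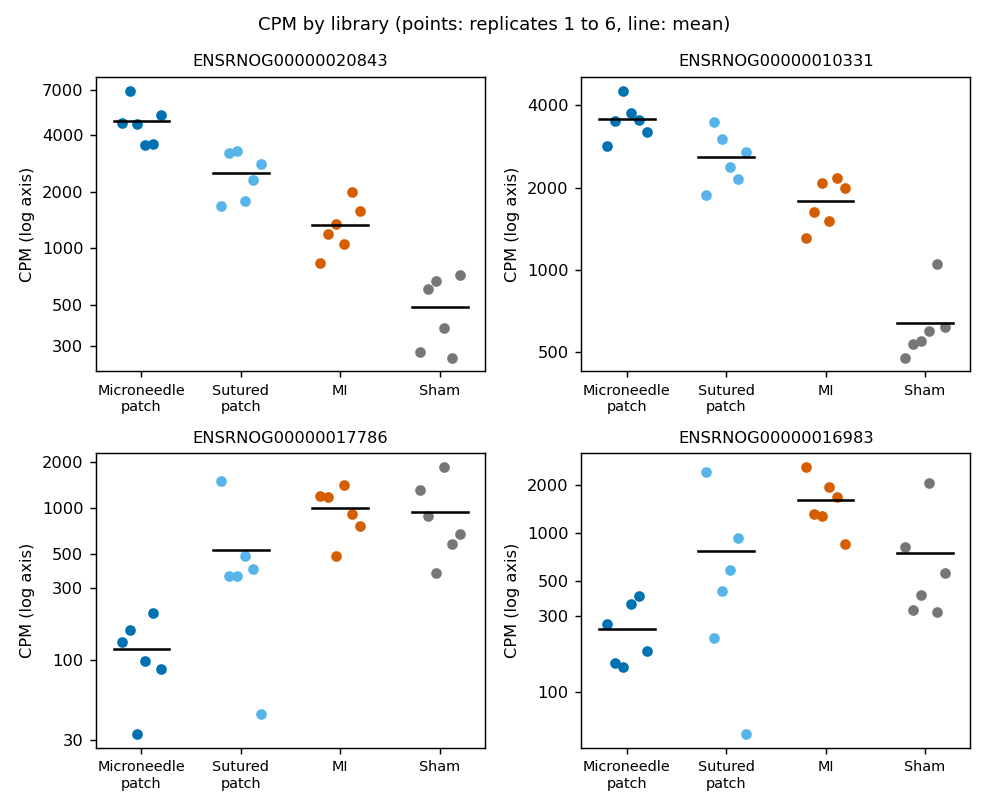
CPM (log axis) of the 4 transcripts given by ID in each library; points are replicates 1 to 6 from left to right and the line is the group mean. The upper panels are the 2 steepest rises with the microneedle patch against MI (means 4736 and 3560 CPM with the microneedle patch, against 1332 and 1782 CPM in MI), the lower panels the 2 steepest falls (means 119 and 249.6 CPM with the microneedle patch, against 997 and 1600 CPM in MI); in the lower panels sutured patch replicate 1 lies high and replicate 6 low.

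The other 8 transcripts that fell with the microneedle patch had log2 fold changes from -1.20 to -0.65. They had MI ranks 11, 17, 36, 52, 63, 67, 68 and 95. The most abundant of them, of MI rank 11, ran from 1587 over 2634 to 2751 CPM with the microneedle patch and from 3109 over 3776 to 4182 CPM in MI. The groups did not overlap (log2 fold change -0.65, SE 0.15, edgeR adjusted p = 0.00755). The transcript of MI rank 17 ran from 410 over 1131 to 1914 CPM with the microneedle patch and from 2437 over 2657 to 2971 CPM in MI, again without overlap (log2 fold change -1.20, SE 0.33, adjusted p = 0.0189). Its coefficient of variation was 54.7% with the microneedle patch and 7.46% in MI.

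With the sutured patch, 0 of the 54 transcripts rose against MI and 13 fell (edgeR), where 2.87% of all genes were called higher and 1.67% lower, 4.55% in all. The median log2 fold change of the 54 was -0.22, against -0.00165 over all genes tested, and 35 of 54 were below 0. Of the 43 genes abundant in both MI and Sham, 1 fell. At an unadjusted edgeR p below 0.05, 2 of the 54 were higher and 20 lower with the sutured patch. Of the 14540 genes tested, 1593 were higher and 1275 lower. DESeq2 called 1 of the 54 higher, against 4.63% of genes, and 16 lower, against 3.15%. With limma-voom 2 were called higher, against 1598 of 14540 genes, and 22 lower, against 1550. In 15 of the 54 transcripts every sutured patch library lay below every MI library, against 2.39% of all genes tested, and in 1 every one lay above, against 7.01%. The choice by a high level in these MI libraries favours such falls in the 54, and the genes tested as a whole were not so chosen. The count of 13 calls fell to 8 without MI replicate 2, 3 or 4 and without sutured patch replicate 4 or 6, each left out alone, in fits that called between 2.23% and 3.81% of all genes in either direction.

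Abundant transcripts were among those that fell with the sutured patch. That of MI rank 11 had the lowest adjusted p, with 1532 over 2075 to 2192 CPM with the sutured patch and 3109 over 3776 to 4182 CPM in MI (log2 fold change -1.01, SE 0.16, edgeR adjusted p = 0.000448). That of MI rank 7 ran from 665 over 1760 to 2758 CPM with the sutured patch and from 4078 over 4576 to 6724 CPM in MI (-1.57, SE 0.36, adjusted p = 0.0135). Against MI, the same transcript had a log2 fold change of -0.54 with the microneedle patch (SE 0.35, adjusted p = 0.292). That of MI rank 5 ran from 3804 over 4175 to 5031 CPM with the sutured patch and from 5041 over 6192 to 7354 CPM in MI (-0.58, SE 0.16, adjusted p = 0.0364). In none of these 3 transcripts did the groups overlap, although for MI rank 5 the margin was only that between 5031 and 5041 CPM.

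The steepest fall with the sutured patch was that of MI rank 88, one of the 4 transcripts below 50 CPM in Sham. It ran from 73.0 over 328 to 582 CPM with the sutured patch and from 693 over 1007 to 1249 CPM in MI (log2 fold change -1.59, SE 0.31, edgeR adjusted p = 0.00434). With the microneedle patch it had -0.53 against MI (SE 0.30, adjusted p = 0.234). At MI rank 63 the log2 fold change was -1.58 with the sutured patch (SE 0.37, adjusted p = 0.0166) and -1.09 with the microneedle patch (SE 0.37, adjusted p = 0.0486). At MI rank 52 it was -1.40 with the sutured patch (SE 0.29, adjusted p = 0.00678) and -0.92 with the microneedle patch (SE 0.28, adjusted p = 0.0335). Whether the effect of one patch on a transcript differs from that of the other is the comparison between the patches above, in which none of the 54 was called by edgeR.

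Spread between libraries differed among the groups. The median coefficient of variation of the 54 was 23.1% with the microneedle patch, 24.5% with the sutured patch, 18.2% in MI and 31.6% in Sham. Over all genes tested the medians were 23.6%, 23.7%, 14.97% and 41.1% in the same order of groups. A coefficient above 50% was found in 6 transcripts with the microneedle patch, 8 with the sutured patch, 1 in MI and 9 in Sham. The steadiest transcript with the microneedle patch was that of MI rank 97, at 4.25%, with 1045 over 1113 to 1178 CPM. The least steady with the sutured patch was ENSRNOG00000016983, at 111%.

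Single libraries stood out across many of the transcripts. In the microneedle patch group, replicate 2 held the lowest value of 24 of the 54 transcripts, and in the sutured patch group replicate 2 held the lowest of 20 and the highest of 13. In MI, replicate 1 held the lowest value of 28 transcripts and was above the group mean in only 9. In Sham, replicate 4 held the highest value of 22 transcripts, and replicates 3 and 5 the lowest of 21 each. Replicate 5 also held the highest of 12. These counts were not taken over all genes. The median log2 ratio of a library to its group mean is given for the 54 and, after it, for all genes tested. It was -0.29 and -0.21 in Sham replicate 5, -0.25 and 0.05 in replicate 3 and 0.22 and -0.13 in replicate 4. In MI replicate 1 it was -0.23 and 0.02. In replicate 2 it was -0.27 and -0.06 with the microneedle patch and -0.20 and -0.06 with the sutured patch. What sets these libraries apart was not tested. Without MI replicate 1, 10 of the 54 transcripts were called for the microneedle patch against MI, where 7.06% of all genes were. For the sutured patch against MI 9 were called, where 2.1% of all genes were.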

How the data were processed

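RNA was sequenced from 24 libraries of rat left ventricle (Trizol extraction and a NEBNext Ultra kit, per the labels' protocols). The authors deposited raw counts for each Ensembl gene ID and library, neither normalized nor pooled. HISAT2, featureCounts and the build rn6 are named, per the submitters' processing notes. Versions, annotation release, strand and the treatment of reads with several positions were not given in the sources used here, so near-identical, overlapping or antisense genes could share reads. Column names matched the codes in the sample titles, with 0 left over.

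The transcripts and lists were chosen with earlier results of these data known. CPM values use column totals. Tests used edgeR 4.0.16 in R 4.3.3: filterByExpr (minimum count 10) left 14540 genes, all 54 transcripts included, followed by TMM scaling, 4 group means over 24 libraries (20 residual degrees of freedom), robust dispersions and the quasi-likelihood F test. Calls were made at an adjusted p below 0.05 over all genes. The SE is the absolute log2 fold change over the square root of F. The fit was tested on simulated data. Alternatives were RLE scaling, column totals, no filter, DESeq2 1.42.0, limma-voom (limma 3.58.1) with quality weights, fits of 2 groups, a block for the replicate number, other list sizes and libraries left out. With no symbol paired, the naming rule allowed 2 IDs each way, those with the largest called changes for the microneedle patch against MI, since the comparison of the patches had no call. Others are given by rank: the 10 most abundant, those at the limits and up to 8 called ones each way. The transcripts of MI ranks 56, 78 and 94 were added after their values were seen. Role and marker lists could not be applied. No libraries of a group agreed within sampling noise: chi-square over its degrees of freedom was at least 14.6 in every pair.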

Additional observations from a re-analysis of the deposited data

Results flagged for a closer look

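In 20 sets of 6 libraries (the 4 transcripts given by ID and the summed share, in each group), the highest or lowest library was set against the range of its group. In 5 of them it stood apart by more than Dixon's 95% critical value. Chance gives about 1 in 20 for independent sets of normally distributed values. The 4 transcripts are part of the summed share, so these sets are not independent, and normality was not tested. Sutured patch replicate 1 was far above the others for ENSRNOG00000017786, at 1520 CPM, and for ENSRNOG00000016983, at 2399 CPM. Sham replicate 4 was far above the other Sham libraries for ENSRNOG00000016983, at 2036 CPM, and for the summed share of the 54 transcripts, at 2.76%; without it the Sham share averaged 2.17% ± 0.11 (SD, n = 5). Sham replicate 5, the shallowest library, was the highest Sham library for ENSRNOG00000010331, at 1052 CPM.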

How the results depend on the processing

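The number of transcripts was 52 to 55 when 1 MI or Sham library was left out of the choice; taking the 50 or the 200 most abundant genes gave 29 and 90. For the microneedle against the sutured patch, the 0 calls (0.316% of all genes) became 7 with DESeq2 (2.89%), 14 with limma-voom (5.52%), 5 without Sham replicates 4 and 5 (3.37%) and 0 to 3 with each library left out (at most 2.06%). The count stayed 0 in a fit of the 2 patch groups alone (0.417%), with RLE scaling, with column totals and without the filter. For the microneedle patch against MI, the 13 calls (14.5% of all genes) became 24 with limma-voom (35.1%), 21 in a fit of the 2 groups alone (4593 of 13934 genes), 20 without Sham replicates 4 and 5 (25.7%) and 9 to 21 with each library left out (7.06% to 23.8%). For the sutured patch against MI, the 13 calls (4.55% of all genes) became 24 with limma-voom (21.7%), 20 in a fit of the 2 groups alone (15.3%), 8 without the filter on low counts (2.32%) and 8 to 18 with each library left out (2.1% to 9.6%). The causes were not tested. The 4 transcripts given by ID kept their direction in the 3 comparisons under every alternative run, and their calls for the microneedle patch against MI held in all of them. Libraries with the same replicate number deviated together in some pairs and not in others (correlations from -0.061 to 0.408). Libraries with unlike numbers were not correlated for reference, so whether the numbers pair the samples was not settled. With the replicate number as a block, 3 transcripts were called between the patches (1.09% of all genes), 17 for the microneedle patch against MI (18.2%) and 15 for the sutured patch against MI (5.96%). Scaling by column totals moved the median of all genes by at most 0.088 on the log2 scale.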
